A study of Mus musculus with 6 samples.

Results

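The 35 genes described here are a fixed set of cell cycle and proliferation genes, taken by gene name from a table of 25102 genes in mouse liver, with no filter on expression. All 35 were in the table. They fall into 3 roles: 4 regulators of the G1/S step, 10 genes of DNA replication and nucleotide supply, and 21 genes of G2 and mitosis. The livers were those of 3 DEN+CCl4 mice, a model of hepatocellular carcinoma, and of 3 control mice, all male C57BL/6J, 2 weeks old when the groups were formed. DEN+CCl4 mice had 1 injection of diethylnitrosamine (DEN, a DNA-alkylating carcinogen) at 1 mg/kg. From about 6 weeks after it they had carbon tetrachloride (CCl4, which injures hepatocytes) at 0.2 mL/kg, 2 times a week for up to 14 weeks, and the labels name no treatment of the controls. The labels give neither the age at sampling nor whether the tissue was tumour or surrounding liver, and a replicate number is the only mark of an animal. The p-values therefore measure the spread between these libraries.

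A resting adult hepatocyte has left the cell cycle. Its return is driven by D-type cyclins, which with Cdk4 and Cdk6 inactivate the retinoblastoma protein and free E2F factors. E2F factors then switch on cyclin E and the genes of DNA synthesis. Mitotic genes follow later under Foxm1, B-Myb and the MuvB complex. Their promoters often carry a cell cycle homology region (CHR) and CCAAT boxes, while promoters of S-phase genes often carry E2F sites. CDK inhibitors such as p21, p15 and p16 oppose these kinases, and p16 in particular accumulates in senescent cells. In liver the set is low at rest and rises in waves after partial hepatectomy or toxic injury.

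Promoter windows from RefSeq (GRCm38.p6, 250 bases before to 50 after the start) were found for 26 of the 35 genes. They were searched on both strands for E2F letters (TTGGCGC, its variant TTCGCGC, the further variant TTCCCGC and the last variant TTGCCGC), for CHR letters (TTTGAA and its variant TTCGAA) and for the CCAAT box. Matches may overlap: TTGGCGC and the reverse of TTCGCGC do so in Mcm6, and CCAAT read on the other strand (ATTGG) can run into TTGGCGC. CHR letters were in 11 of 15 windows of the G2 and mitosis genes (73.3%) and in 2 of 9 of the replication genes (22.2%), against 19.4% of the windows of all 27025 genes. E2F letters were in 3 of 15 mitotic windows (20.0%) and in 5 of 9 replication windows (55.6%), against 9.69% of all windows. CCAAT was in 13 and in 7 of them (86.7% and 77.8%), against 37.9%. The window of Ccne1 held none of the 3. The RefSeq windows of E2f1 and Mcm7 lie wholly inside the genes as GENCODE draws them, downstream of the start given there, so they do not show the bases before that start. Cell cycle genes outside the set had CHR letters in 76.6% of 47 mitotic windows and E2F letters in 64.5% of 31 replication windows. A match describes the letters only. The 3 sequences below are the 250 bases before the start, 5′ to 3′ on the gene's strand, with matches to any of the 3 motifs in capitals. Top2a shows the mitotic promoter type and Mcm6 the E2F type, while Mki67 holds CHR letters, CCAAT boxes and the E2F letters TTGGCGC. Mki67 and Top2a lay above every control in each DEN+CCl4 liver, and the groups of Mcm6 overlapped. CHR letters were also in the windows of Aurka, Bub1b and Kif11, whose groups overlapped, and Ccnb1, whose groups separated, had none. A link between motifs and group differences was not tested.
Mki67 (chr7:135716380-135716629, minus strand): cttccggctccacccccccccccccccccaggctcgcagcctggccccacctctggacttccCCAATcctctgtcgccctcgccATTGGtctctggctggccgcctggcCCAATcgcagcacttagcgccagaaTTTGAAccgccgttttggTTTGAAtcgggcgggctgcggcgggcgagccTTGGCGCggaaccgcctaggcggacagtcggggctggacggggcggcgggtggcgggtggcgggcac
Top2a (chr11:99024190-99024439, minus strand): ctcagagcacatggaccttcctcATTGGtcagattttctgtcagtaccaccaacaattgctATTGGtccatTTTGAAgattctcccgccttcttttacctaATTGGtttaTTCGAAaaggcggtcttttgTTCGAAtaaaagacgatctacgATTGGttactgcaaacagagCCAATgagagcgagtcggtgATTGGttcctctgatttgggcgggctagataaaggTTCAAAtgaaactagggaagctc
Mcm6 (chr1:128359706-128359955, minus strand): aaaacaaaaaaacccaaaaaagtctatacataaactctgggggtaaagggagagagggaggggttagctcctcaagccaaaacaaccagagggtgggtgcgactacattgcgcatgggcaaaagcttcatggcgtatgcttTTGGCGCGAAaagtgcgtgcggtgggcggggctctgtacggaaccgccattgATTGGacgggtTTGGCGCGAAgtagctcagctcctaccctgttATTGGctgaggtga

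Most of the set was barely expressed in either group. Levels are given in FPKM (fragments per kilobase of transcript, scaled to a fixed number of mapped fragments), so they can be compared between genes of different length. Only 4 of the 35 genes reached a mean of 1 FPKM over the 6 libraries: Tk1 (6.93), Ccnd1 (4.57), Mcm7 (2.31) and Pcna (1.87). The next were Stmn1 (0.91) and Ccne1 (0.853), just under that limit. At the other end, 26 genes stayed below 1 FPKM in every library, 18 of the 21 mitotic genes among them, and 6 had a mean below 0.1 FPKM. The table has 2 decimals, so the lowest genes are read in steps of 0.01 FPKM. Where 3 values are given for a group, they are those of replicates 1, 2 and 3 in that order. Read counts are not given, and no counting interval can be put on these values.

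**Figure D1:**
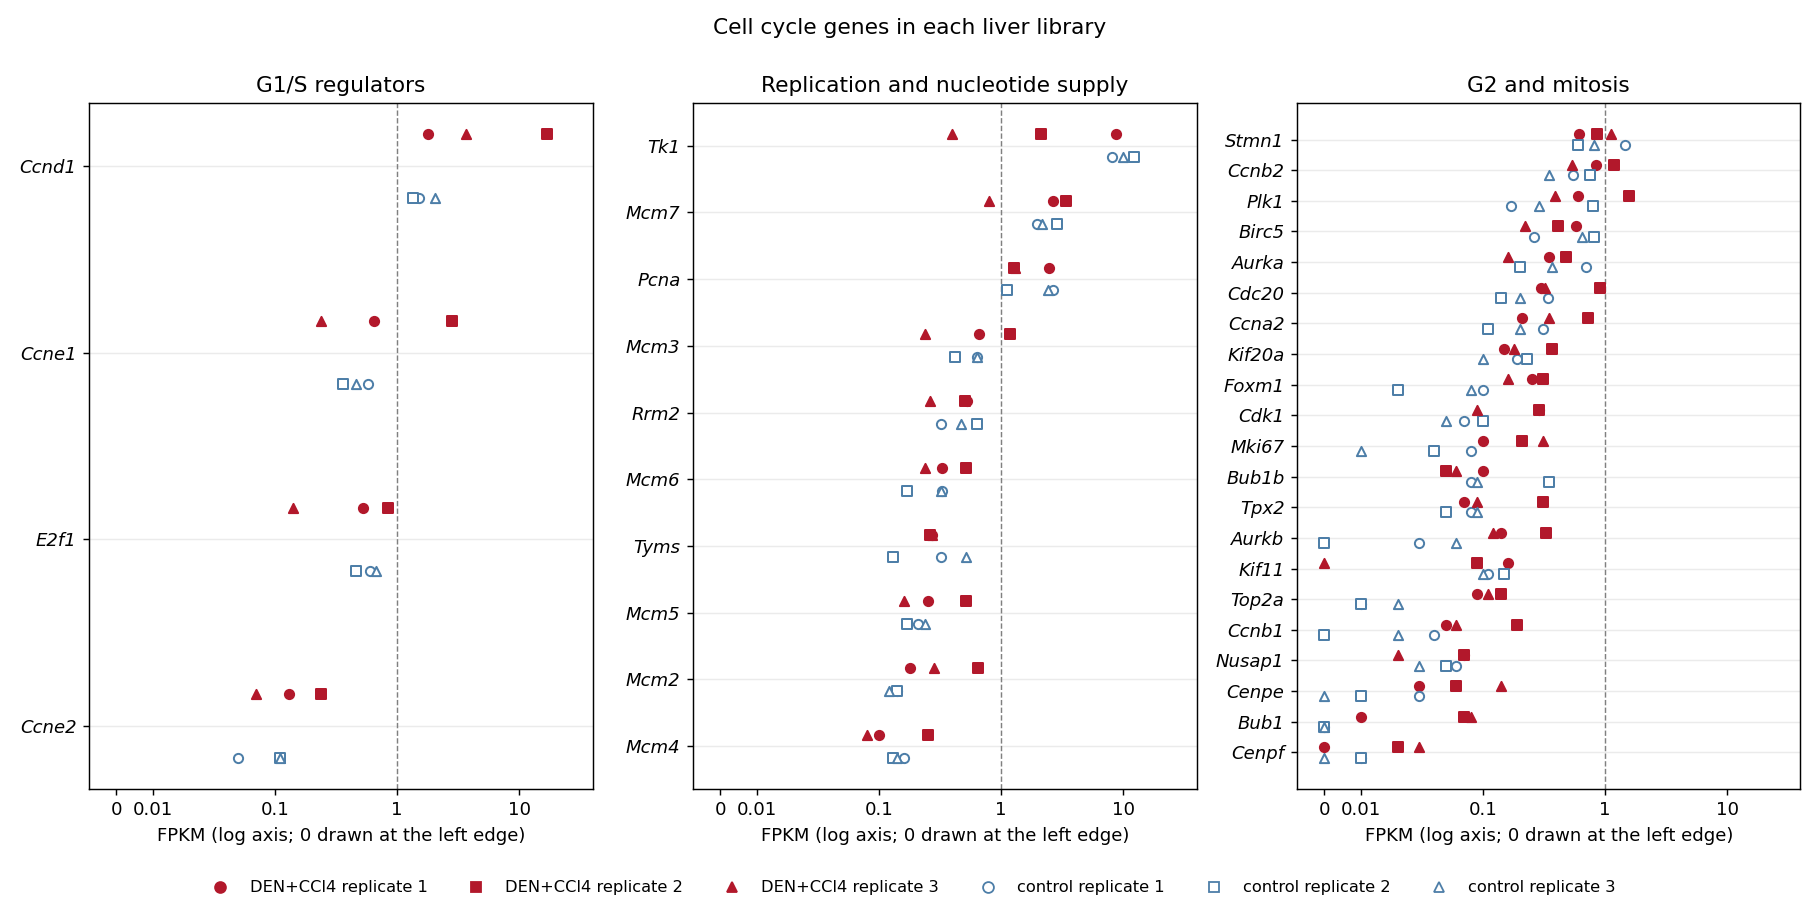
FPKM of the 35 cell cycle genes (log axis, values of 0 at the left edge) in each of 3 DEN+CCl4 livers (filled) and 3 control livers (open), by role, with a dashed line at 1 FPKM. Ccnd1, Tk1, Mcm7 and Pcna lie around or above the line, and 18 of the 21 mitotic genes lie left of it in every library.

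The libraries were not on one scale. In DEN+CCl4 replicate 3, 64.2% of the summed FPKM came from mitochondrially encoded transcripts, against 36.9% and 40.6% in DEN+CCl4 replicates 1 and 2 and 26.6% to 43.0% in the controls. The median FPKM of the 8528 genes tested (mean of at least 1 FPKM) was 1.19 in that library and 3.43 to 4.46 in the other 5. Values are therefore also given after median-ratio scaling, which brings every library to a common median ratio against the gene-wise geometric mean. The median log2 difference of the tested genes was -0.27 as deposited and -0.10 after scaling. Differences between groups were tested over all 8528 genes with limma on log2(FPKM + 1) and Benjamini-Hochberg adjustment. Of these genes 126 passed an adjusted p of 0.05 (1.48%; 0.833% higher and 0.645% lower in DEN+CCl4 liver). Of the 35 cell cycle genes 4 could be tested and 0 passed, with 1 higher and 1 lower among those at a raw p under 0.05. With no filter all 35 entered and 0 passed, nor did any other gene (limma, with a raw p under 0.05 for 5 higher and 1 lower of the set).

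Among the G1/S regulators, cyclin D1 stood out in size. Ccnd1 (chromosome 7, 144929931 to 144939925, GRCm38), which partners Cdk4 and Cdk6, read 1.78, 17.04 and 3.68 FPKM in the DEN+CCl4 livers, against 1.52, 1.36 and 2.03 FPKM in the control livers. Replicates 2 and 3 lay above every control and DEN+CCl4 replicate 1 lay inside the control range, so the groups overlapped. The mean was 7.50 ± 8.32 FPKM in DEN+CCl4 livers and 1.64 ± 0.35 FPKM in controls (SD, n = 3 each). The log2 fold change on the log2(FPKM + 1) scale was 1.23 with a standard error of 0.55 (limma adjusted p = 0.474; exact two-sided permutation test p = 0.2, where 3 against 3 cannot go below 0.1). After median-ratio scaling Ccnd1 was at 1.43, 11.7 and 8.79 in the DEN+CCl4 livers, against 1.19 to 1.75 in the controls, and the log2 fold change came to 1.46 (limma adjusted p = 0.435). As deposited the fold change was 0.46 without DEN+CCl4 replicate 2. Exons of Ccnd1 share 1100 bases with those of Oraov1 on the other strand, and strand use in the counting is not stated. Oraov1 itself was at 0.05 to 0.67 FPKM in DEN+CCl4 livers and at 0.55 to 0.70 FPKM in controls.

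Cyclin E1, which activates Cdk2 at the start of S phase, was high in 1 liver. Ccne1 read 0.65, 2.83 and 0.24 FPKM in the DEN+CCl4 livers, against 0.58, 0.36 and 0.46 FPKM in the control livers. Its value in DEN+CCl4 replicate 2 was the only one above 1 FPKM. Its relative Ccne2 was at 0.07 to 0.24 FPKM in DEN+CCl4 livers and 0.05 to 0.11 FPKM in controls. After scaling the 3 treated livers lay above all controls for Ccne2 (0.104 to 0.167, against 0.0456 to 0.0964). E2f1, the transcription factor that drives S-phase genes, did not separate the groups on either scale: it was at 0.53, 0.84 and 0.14 FPKM in the DEN+CCl4 livers, and at 0.46 to 0.67 FPKM in controls.

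Of the replication and nucleotide genes, thymidine kinase stood apart from the rest. Tk1 (chromosome 11, 117815526 to 117826092), which phosphorylates thymidine for DNA synthesis, read 8.68, 2.13 and 0.40 FPKM in the DEN+CCl4 livers. In the control livers it read 8.10, 12.32 and 9.98 FPKM and was the most abundant gene of the set. The first treated liver lay within the control range and the other 2 below it. The means were 3.74 ± 4.37 FPKM in DEN+CCl4 livers and 10.1 ± 2.11 FPKM in controls (SD, n = 3 each), a log2 fold change of -1.66 with a standard error of 0.63 (limma adjusted p = 0.259; exact two-sided permutation p = 0.2). After scaling the 3 treated livers (6.98, 1.46 and 0.955) lay below all controls (7.39 to 10.8), and the log2 fold change came to -1.54 (limma adjusted p = 0.432). Without DEN+CCl4 replicate 1 the fold change was -2.39 and passed (limma adjusted p = 0.0206), in a fit that called 3.21% of genes lower. Tk1 shares 83 exonic bases with Afmid on the other strand, a kynurenine formamidase gene. Afmid was also low in replicates 2 and 3, at 85.57, 31.06 and 0.54 FPKM in the DEN+CCl4 livers and at 65.92 to 91.30 FPKM in controls, and its part in the Tk1 values was not tested.

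The 6 subunits of the MCM helicase, which opens DNA at replication origins, were at very unequal levels. Mcm7 was the highest, at 2.68, 3.42 and 0.79 FPKM in the DEN+CCl4 livers and at 1.97, 2.86 and 2.15 FPKM in the control livers. The groups overlapped (log2 fold change -0.10, limma adjusted p = 0.996), and the sign turned to 0.04 after scaling. Mcm2 was the one subunit that separated the groups, at 0.18, 0.65 and 0.28 FPKM in the DEN+CCl4 livers and at 0.14, 0.14 and 0.12 FPKM in the control livers. Its mean was 0.370 ± 0.248 FPKM in treated livers and 0.133 ± 0.0115 FPKM in controls (SD, n = 3 each). The exact two-sided permutation p was 0.1, the smallest possible, which the separation of the groups already fixes. Mcm3, Mcm4, Mcm5 and Mcm6 ran from 0.08 to 1.18 FPKM over all 6 libraries and overlapped between the groups. Each was highest in DEN+CCl4 replicate 2 as deposited, and Mcm4, Mcm5 and Mcm6 were highest in DEN+CCl4 replicate 3 after scaling. Mcm7 shares 24.4% of its 31-base words with other genes, most with Gm5487, so its level is less certain than those of the other subunits.

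Pcna, the sliding clamp that holds DNA polymerase on the template, did not separate the groups: it read 2.45, 1.27 and 1.30 FPKM in the DEN+CCl4 livers and 2.66, 1.12 and 2.43 FPKM in the control livers. Its log2 fold change was -0.19 (limma adjusted p = 0.996) and 0.04 after scaling, and it shares 23.3% of its words with copies such as Pcna-ps2. Rrm2, the small subunit of ribonucleotide reductase, was at 0.26 to 0.53 FPKM in DEN+CCl4 livers and 0.32 to 0.64 FPKM in controls. Tyms, which makes thymidylate, was at 0.26 to 0.27 FPKM in DEN+CCl4 livers and 0.13 to 0.52 FPKM in controls. Thymidylate can be made by Tyms or salvaged by Tk1, and in control liver only the salvage gene was above 1 FPKM. The overlap of Tk1 with Afmid, given above, limits this reading. Over the 10 replication genes the treated mean was the higher for 4 and the lower for 5 as deposited (9 and 1 after scaling), and Mcm4 had equal means.

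The G2 and mitosis genes held most of the genes that separated the groups. As deposited, 7 of the 35 genes lay above every control in all 3 DEN+CCl4 livers: Mcm2 and the mitotic genes Mki67, Top2a, Foxm1, Aurkb, Ccnb1 and Bub1. None of the 35 lay below. The margin was narrow for some: in DEN+CCl4 replicate 1 Ccnb1 was at 0.05 FPKM beside a highest control of 0.04 FPKM. Bub1 was at 0.01 FPKM there beside controls at 0, and the values are in steps of 0.01 FPKM. Of all 24933 genes above 0 in some library, 3.83% lay above and 4.06% below. Among the 13299 genes from the level of the lowest member up to 1 FPKM the shares were 5.14% and 4.08%. After scaling 10 of the 35 lay above, the same 7 with Ccne2, Ccnb2 and Cdk1 (background 6.55%, and 8.35% from the lowest member up to 1 FPKM), and Tk1 lay below (background 5.83%, and 5.15% in that range).

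Mki67, whose protein Ki-67 coats mitotic chromosomes and is the usual marker of cycling cells, read 0.10, 0.21 and 0.31 FPKM in the DEN+CCl4 livers. In the control livers it read 0.08, 0.04 and 0.01 FPKM. Every treated liver was above every control, though DEN+CCl4 replicate 1 by only 0.02 FPKM. Top2a, the topoisomerase that untangles sister chromatids, read 0.09, 0.14 and 0.11 FPKM in the DEN+CCl4 livers and 0.01, 0.01 and 0.02 FPKM in the control livers. Here the treated livers were close together, at 0.113 ± 0.0252 FPKM against 0.0133 ± 0.00577 FPKM in controls (SD, n = 3 each), 8.50 times as high. With no filter its limma p was 0.0025 before adjustment and 0.875 after it.

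Foxm1, the transcription factor of the mitotic programme, read 0.25, 0.31 and 0.16 FPKM in the DEN+CCl4 livers, against 0.10, 0.02 and 0.08 FPKM in the control livers. Aurkb, the kinase of the chromosomal passenger complex, read 0.14, 0.33 and 0.12 FPKM in the DEN+CCl4 livers, against 0.03, 0 and 0.06 FPKM in the control livers. Both were above the controls in every treated liver, and Foxm1 shares exonic bases with Tex52 and Gm44596 on its own strand. Gm44596 was listed at 0.17, 0.17 and 0 FPKM in the DEN+CCl4 livers and at 0 in all controls. The part of Gm44596 in the Foxm1 values was not tested. Ccnb1, the cyclin that drives entry into mitosis with Cdk1, read 0.05, 0.19 and 0.06 FPKM in the DEN+CCl4 livers and 0.04, 0 and 0.02 FPKM in the control livers. It shares 27.7% of its words with copies, chiefly Ccnb1-ps. The checkpoint kinase gene Bub1 read 0.01, 0.07 and 0.08 FPKM in the DEN+CCl4 livers and was listed at 0 in all controls. The exact two-sided permutation p was 0.1 for each of these genes, the smallest that 3 against 3 allow. That value is fixed once all treated livers lie above all controls, so it adds nothing to the separation. Foxm1 was 3.60, Aurkb 6.56, Mki67 4.77 and Ccnb1 5.00 times as high by the group means, at levels where a step of 0.01 FPKM moves the ratio.

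Other mitotic genes were higher in some treated livers and inside the control range in others. Cdk1, the kinase of mitotic entry, read 0.29, 0.29 and 0.09 FPKM in the DEN+CCl4 livers, against 0.07, 0.10 and 0.05 FPKM in the control livers. Its partners Ccnb2 (0.54 to 1.19 FPKM in DEN+CCl4 livers, 0.35 to 0.75 FPKM in controls) and Ccna2 (0.21 to 0.73 FPKM in DEN+CCl4 livers, 0.11 to 0.31 FPKM in controls) overlapped as deposited. Cdc20, which activates the anaphase-promoting complex, was at 0.30 to 0.91 FPKM in DEN+CCl4 livers and 0.14 to 0.34 FPKM in controls. Plk1, a kinase of spindle assembly, was at 0.39 to 1.57 FPKM in DEN+CCl4 livers and 0.17 to 0.80 FPKM in controls. Both were highest in DEN+CCl4 replicate 2 as deposited. So was Tpx2, a spindle assembly factor, at 0.31 FPKM there and at 0.05 to 0.09 FPKM in the other 5 livers. After scaling Tpx2 was at 0.0563, 0.212 and 0.215 in the DEN+CCl4 livers and at 0.0438 to 0.0775 in controls. Scaled Cdc20 was highest in DEN+CCl4 replicate 3 (0.764, beside 0.624 in replicate 2). Kif20a, a kinesin of cytokinesis, ran from 0.15 to 0.37 FPKM in DEN+CCl4 livers and from 0.10 to 0.23 FPKM in controls.

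In the remaining mitotic genes the groups overlapped, and for some the treated mean was the lower. Aurka, the centrosomal kinase, was at 0.16 to 0.48 FPKM in DEN+CCl4 livers and 0.20 to 0.70 FPKM in controls. Birc5, which encodes survivin, was at 0.22 to 0.58 FPKM in DEN+CCl4 livers and 0.26 to 0.81 FPKM in controls. The spindle checkpoint gene Bub1b was at 0.05 to 0.10 FPKM in DEN+CCl4 livers and 0.08 to 0.35 FPKM in controls. Kif11, the kinesin that separates spindle poles, was at 0 to 0.16 FPKM in DEN+CCl4 livers and 0.10 to 0.15 FPKM in controls. For these 4 genes the treated mean was the lower one on both scales, and the groups overlapped on both. Nusap1, a spindle microtubule protein, was at 0.02 to 0.07 FPKM in DEN+CCl4 livers and 0.03 to 0.06 FPKM in controls. The centromere motor gene Cenpe reached 0.14 FPKM in DEN+CCl4 replicate 3 and was otherwise at most 0.06 FPKM, and Cenpf was at most 0.03 FPKM anywhere. Stmn1, a microtubule-destabilising protein also made outside mitosis, was at 0.61 to 1.11 FPKM in DEN+CCl4 livers and 0.60 to 1.46 FPKM in controls, with the lower mean in DEN+CCl4 livers as deposited and the higher one after scaling.

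**Figure D2:**
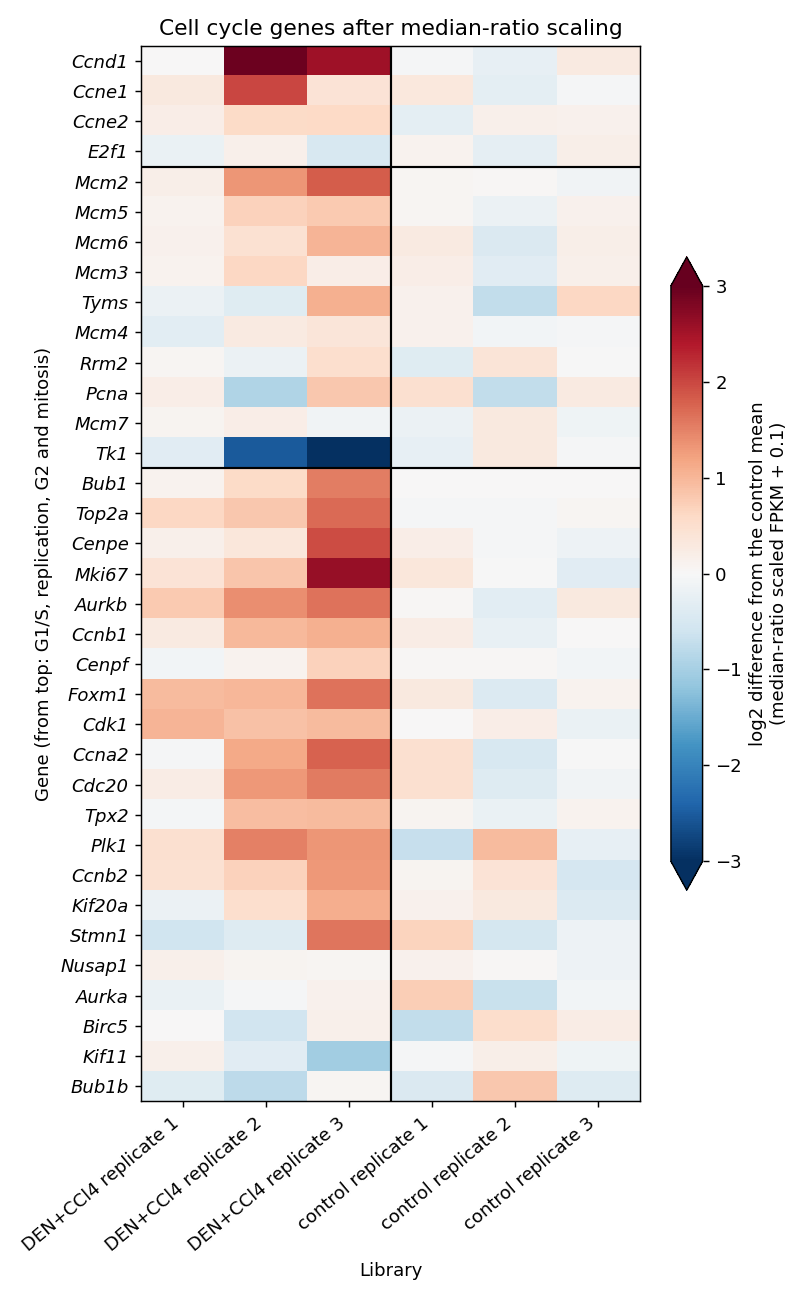
Log2 difference of each gene from the control mean after median-ratio scaling (FPKM + 0.1), with DEN+CCl4 libraries left of the controls and lines between the roles. DEN+CCl4 replicate 1 is pale, replicates 2 and 3 are red for Ccnd1 and most mitotic genes, and Tk1 is blue in both.

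Over the 21 mitotic genes the treated mean was the higher for 16 and the lower for 5 as deposited (17 and 4 after scaling). For all 35 it was the higher for 23 and the lower for 11 (29 and 6 after scaling), against 46.6% of all genes above 0 as deposited (51.5% after scaling). The median log2 difference, on the log2(FPKM + 1) scale, was 0.26 for the G1/S genes, -0.02 for the replication genes and 0.10 for the mitotic genes, beside -0.01 for all genes in the table. With a pseudocount of 0.1, which shrinks low values less, these medians were 0.52, -0.08 and 0.58, beside -0.09 for all genes. On the log2(FPKM + 1) scale they were -0.01, -0.08 and 0.06 without DEN+CCl4 replicate 2. The replication median was 0.10 when DEN+CCl4 replicate 3 was left out.

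The 3 treated livers differed among themselves. As deposited, 20 of the 35 genes had their highest value of the 6 libraries in DEN+CCl4 replicate 2, 4 in replicate 3 and 3 in replicate 1, where Cdk1 and Nusap1 tie with replicate 2. Of all genes above 0, 38.7% were highest in replicate 2, 4.82% in replicate 3 and 13.4% in replicate 1. After scaling 4 genes were highest in replicate 2, 22 in replicate 3 and 2 in replicate 1 (21.5%, 23.1% and 10.7% of all genes), so the order of replicates 2 and 3 depended on the scale. The heat map of scaled values shows the genes by library: 11, 23 and 26 of the 35 genes lay above the control range in the DEN+CCl4 livers, and 3, 4 and 3 lay below it. Of all genes above 0, 21.8%, 33.3% and 28.8% lay above that range in the same livers, and 15.5%, 22.7% and 30.2% below it. The median scaled log2 difference of the mitotic genes from the control mean (FPKM + 0.1) was 0.15, 0.69 and 1.29 in the DEN+CCl4 livers, and -0.10 to 0.08 in the controls. For the replication genes it was 0.09, 0.23 and 0.64 in the treated livers and -0.13 to 0.09 in the controls. Scaling multiplies the low values of DEN+CCl4 replicate 3 most, and 16447 genes were above 0 in that library against 19260 to 20634 in the others.

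Inhibitors of the cyclin-dependent kinases were the cell cycle genes outside the set that passed the test. Of the 7 inhibitors 3 were tested, and 2, Cdkn1a and Cdkn2b, were called higher in DEN+CCl4 liver (0 lower). Both were below 1 FPKM in every control and passed the filter only through the treated livers, so a call could only be a higher one. The count is therefore not read against the background of 0.833% higher. Cdkn1a (chromosome 17, 29090976 to 29100727), which encodes p21 and is induced by p53, read 1.22, 13.72 and 6.19 FPKM in the DEN+CCl4 livers, against 0.62, 0.59 and 0.34 FPKM in the control livers. All treated livers were above all controls, replicates 2 and 3 by far (log2 fold change 2.03 with a standard error of 0.49, limma adjusted p = 0.00882). Cdkn2b (chromosome 4, 89306299 to 89311039), which encodes p15, read 0.06, 4.71 and 1.70 FPKM in the DEN+CCl4 livers and was listed at 0 in all controls (limma adjusted p = 0.0223). Both calls held without DEN+CCl4 replicate 1. They were lost after median-ratio scaling (limma adjusted p = 0.432 for each) and when any control was left out. Without DEN+CCl4 replicate 2 or 3 Cdkn1a was not called (limma adjusted p = 0.145 and 0.614) and Cdkn2b had a mean below the filter. Cdkn1a shares exonic bases with a transcript on the other strand.

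The neighbour of Cdkn2b, Cdkn2a (chromosome 4, 89274471 to 89294653), encodes p16 and p19Arf and was named after its values were seen. It read 0, 3.02 and 2.01 FPKM in the DEN+CCl4 livers, against 0.15, 0 and 0 FPKM in the control livers, and its mean lay below the filter. The same 2 treated livers were thus high for Ccnd1, Cdkn1a, Cdkn2a and Cdkn2b, while DEN+CCl4 replicate 1 was the lowest treated liver for all 4 genes. In each of these 2 livers Cdkn1a and Ccnd1 were above 3 FPKM, and Mki67 was at 0.21 and 0.31 FPKM. Cdkn1b, which encodes p27, was at 0.79 to 1.48 FPKM in DEN+CCl4 livers and 0.69 to 3.01 FPKM in controls (limma adjusted p = 0.996).

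**Figure D3:**
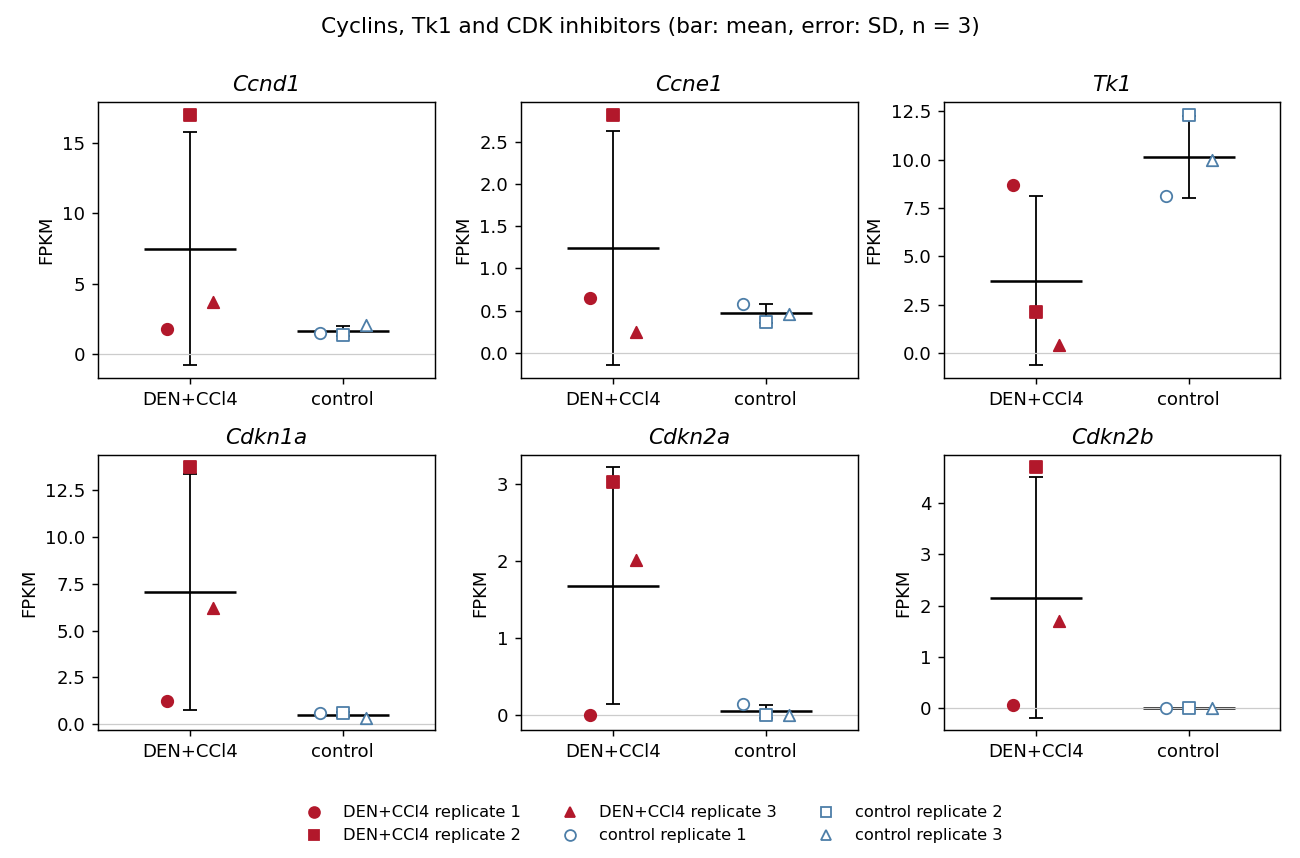
FPKM of Ccnd1, Ccne1, Tk1 and 3 CDK inhibitors in DEN+CCl4 livers (filled) and control livers (open), with the mean as a line and the SD as an error bar (n = 3 each). DEN+CCl4 replicates 2 and 3 are high for Ccnd1, Cdkn1a, Cdkn2a and Cdkn2b and low for Tk1, while replicate 1 is the lowest treated liver for those 4 genes.

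The other genes of the pathway gave no calls. Of 26 other G1/S genes 12 were tested, with 0 called in either direction (limma, raw p under 0.05 for 1 higher and 0 lower) and a median log2 difference of -0.04. Cdk4, the kinase partner of the D-type cyclins, was at 8.81, 26.79 and 2.53 FPKM in the DEN+CCl4 livers and at 20.60, 10.07 and 26.58 FPKM in the control livers. It shares 641 exonic bases with Tspan31 on the other strand, which was at 20.16 to 142.38 FPKM in DEN+CCl4 livers and 118.64 to 133.10 FPKM in controls. E2f4, a repressive E2F of resting cells, was at 8.74 ± 6.33 FPKM in DEN+CCl4 livers and 7.96 ± 1.61 FPKM in controls (SD, n = 3 each). Ccnd3, the third D-type cyclin, named after its values were seen, read 4.60, 3.29 and 1.05 FPKM in the DEN+CCl4 livers, against 0.69, 1.09 and 0.62 FPKM in the control livers. It was high in DEN+CCl4 replicate 1, where Ccnd1 was not (log2 fold change 1.04, limma adjusted p = 0.429). After scaling Ccnd3 was at 3.70, 2.25 and 2.51 in the DEN+CCl4 livers, above all controls at 0.534 to 0.955 (limma adjusted p = 0.383). Ccnd3 shares 361 exonic bases with Bysl on the other strand. Bysl was at 2.13, 2.47 and 0.48 FPKM in the DEN+CCl4 livers and 1.15 to 2.08 FPKM in controls, and its part was not tested.

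Of 40 other replication genes 9 were tested and 0 called (limma, raw p under 0.05 for 0 higher and 1 lower), with a median log2 difference that rounded to 0. Mcm10, an initiation factor, had the highest mean of this list, and was at 5.38, 1.71 and 0.11 FPKM in the DEN+CCl4 livers, below all controls (5.91, 11.49 and 7.75 FPKM). Its log2 fold change was -1.77 (limma adjusted p = 0.125). Gins4, of the replicative helicase, was at 3.38 ± 1.61 FPKM in DEN+CCl4 livers and 5.11 ± 0.979 FPKM in controls (SD, n = 3 each). Of 57 other mitotic genes 10 were tested and 0 called (limma, raw p under 0.05 for 0 higher and 1 lower), with a median log2 difference of 0.04. In every treated liver 5 of them lay above all controls and 2 below as deposited, and 11 above and 3 below after scaling. Over all genes the shares were 3.83% and 4.06% as deposited and 6.55% and 5.83% after scaling, and 5.14% and 8.35% lay above in the range up to 1 FPKM. Pttg1, which encodes securin, was at 6.67 ± 5.68 FPKM in DEN+CCl4 livers and 8.88 ± 2.13 FPKM in controls. Tubb5, a tubulin, was at 11.8 ± 6.14 FPKM in DEN+CCl4 livers and 9.54 ± 2.93 FPKM in controls (SD, n = 3 each).

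**Figure D4:**
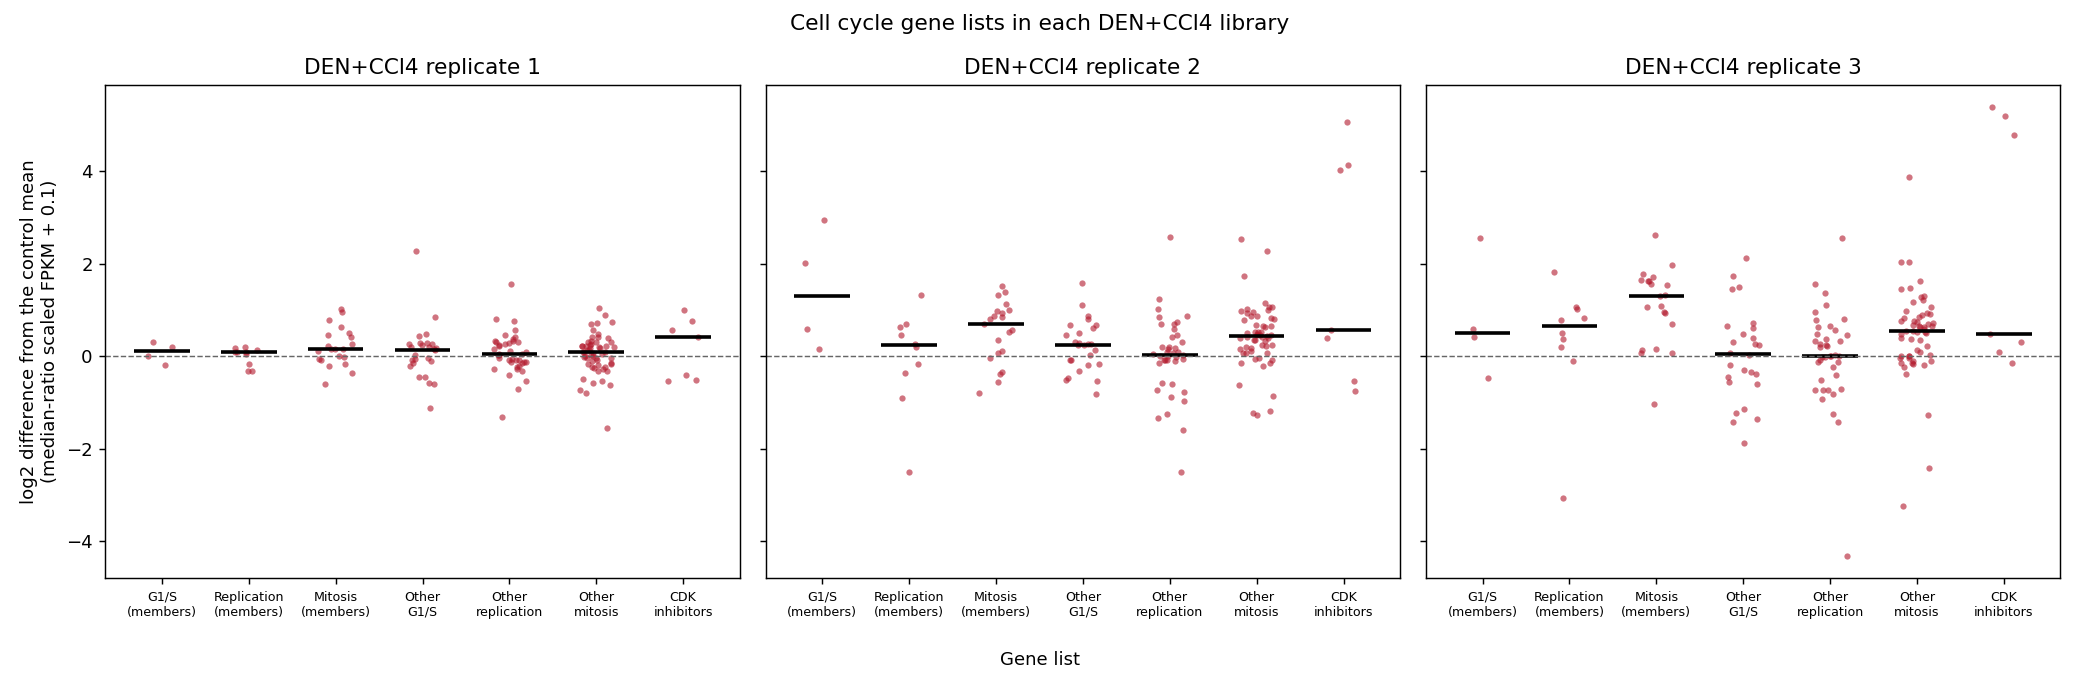
Log2 difference from the control mean after median-ratio scaling (FPKM + 0.1) for each gene (points) and the median (bars) of 7 cell cycle lists, in each DEN+CCl4 library. The mitotic medians of the set lie at 0.15, 0.69 and 1.29 in replicates 1, 2 and 3, and the medians of the other replication genes at 0.04, 0.03 and 0.01.

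Bulk RNA cannot tell fewer cells of a type from less RNA per cell, and cells other than hepatocytes can carry cell cycle transcripts. All 12 hepatocyte markers were present, with a summed level of 53400, 84500 and 18000 FPKM in the DEN+CCl4 livers and 50800 to 81100 FPKM in controls. After median-ratio scaling these sums were 43000, 57900 and 43000 in the DEN+CCl4 livers and 44500 to 69800 in controls. The treated mean was the higher for 3 of these 12 genes and the lower for 9 as deposited (4 and 8 after scaling). None passed limma (raw p under 0.05 for 0 higher and 2 lower). Of the 12, 1 (Cps1) lay below all controls in every treated liver on both scales (background 4.06% as deposited and 5.83% after scaling). The 12 stellate cell and fibroblast markers summed to 28.6, 46.0 and 19.9 FPKM in the DEN+CCl4 livers, all above the controls at 14.7 to 19.3 FPKM. Scaled, they summed to 23.0, 31.5 and 47.5 in the DEN+CCl4 livers and 12.9 to 17.6 in controls. Of these 12 genes, 6 lay above all controls in every treated liver as deposited and 8 after scaling, and 1 (Lrat) lay below as deposited (background as above, 3.83% higher and 4.06% lower, and 6.55% higher after scaling). None was at 0 in any library, and 0 passed limma (raw p under 0.05 for 3 higher and 0 lower). Myeloid markers (12 genes, with Itgam in 2 rows) summed to 47.6 to 79.7 FPKM in DEN+CCl4 livers and 40.6 to 112 FPKM in controls, with members going both ways. Their scaled sums were 64.0, 32.6 and 143 in the DEN+CCl4 livers and 34.9 to 102 in controls, so DEN+CCl4 replicate 3 was then the highest. The neutrophil gene S100a8 was called higher (limma adjusted p = 0.0336, and 0.436 after scaling), but was below 1 FPKM in every control and passed the filter only through the treated livers. Marco, a macrophage receptor gene, read 0.56, 0.37 and 0.51 FPKM in the DEN+CCl4 livers, below all controls (3.39, 0.97 and 0.61 FPKM; limma adjusted p = 0.725), and overlapped after scaling. The Kupffer cell gene Clec4f was at 11.1 ± 9.08 FPKM in DEN+CCl4 livers and 27.7 ± 11.4 FPKM in controls (SD, n = 3 each; limma adjusted p = 0.717). Cd14, also of this list, read 0.91, 3.89 and 6.19 FPKM in the DEN+CCl4 livers, against 1.25, 0.44 and 0.27 FPKM in controls (limma adjusted p = 0.13). Over the 13 myeloid rows the treated mean was the higher for 7 and the lower for 6 as deposited (10 and 3 after scaling). A raw limma p under 0.05 was reached by 3 higher and 0 lower rows. Marco, Clec4f and Cd14 were named after their values were seen. The 12 lymphocyte markers summed to 5.70 to 12.8 FPKM in DEN+CCl4 livers and 7.39 to 8.38 FPKM in controls. Scaled sums were 8.43, 8.78 and 13.6 in the DEN+CCl4 livers, all above the controls at 6.74 to 7.34. As deposited 4 of these genes lay above all controls in each treated liver (background 3.83%). Ms4a1 was at 0 in DEN+CCl4 replicate 3 and in control replicate 1, and Gzma at 0 in control replicates 2 and 3. The 10 endothelial markers summed to 14.5 to 51.9 FPKM in DEN+CCl4 livers and 21.6 to 34.8 FPKM in controls (27.8 to 35.6 and 18.5 to 30.5 after scaling). Cholangiocyte markers (7 genes) summed to 14.7 to 34.2 FPKM in DEN+CCl4 livers and 9.27 to 16.5 FPKM in controls, most of it Spp1. With scaling the sums were 11.8, 23.5 and 60.7 in the DEN+CCl4 livers and 7.98 to 15.1 in controls. Epcam, which marks these cells, went the other way, at 0.11, 0.10 and 0 FPKM in the DEN+CCl4 livers and 0.22, 0.21 and 0.17 FPKM in the control livers, and Cldn7 was at 0 in DEN+CCl4 replicate 3. The 8 erythroid markers in the table, which are mostly haemoglobin, reached 2650 FPKM in DEN+CCl4 replicate 2 and were at 142 to 642 FPKM elsewhere (1820 and 210 to 586 after scaling). The part of these cells in the cell cycle values was not tested.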

How the data were processed

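Poly(A) RNA of 6 mouse livers (3 DEN+CCl4, 3 control) was sequenced by the authors, and their deposited table gives FPKM per gene to 2 decimals. The submitters' processing notes name HISAT, StringTie and GRCm38, with versions, strand use and read depth not given in the sources used here. From these values log2(FPKM + 1) was tested with limma 3.58.1 (R 4.3.3, intensity trend, 8528 genes, mean FPKM 1 or more), with Benjamini-Hochberg adjustment over all of them. Genes below the filter were described by their values, their ranges and an exact two-sided permutation test. The procedure was tested on simulated data that gave both groups the control spread and no shift of scale between libraries. The simulation therefore does not cover the spread and scale of these DEN+CCl4 libraries. Levels were also divided by median-ratio size factors (0.419 to 1.46). Gene positions and overlaps are from GENCODE M21 and promoters from RefSeq (GRCm38.p6). The genes and lists were chosen with earlier results of these data known. All 35 genes are named, and of each other cell cycle list up to 4 genes past the threshold or, failing that, the 2 with the highest mean. The marker lists are given by their sums and by some of their genes, without that rule. One listed cholangiocyte marker is not reported here. Others were named after their values were seen, and the 3 promoters printed were chosen with the values and motif matches known. Tried alternatives were another pseudocount, no filter or a stricter one, 3 rescalings, no trend, a replicate block, each library left out, and 2 combinations added after seeing the data.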

Additional observations from a re-analysis of the deposited data

How the results depend on the processing

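The count of genes called over the whole table (71 higher, 55 lower) was unstable. It was 6 and 3 with a pseudocount of 0.1 and also without mitochondrially encoded genes, 37 and 29 rescaled to TPM, and 14 higher with a filter at 5 FPKM. It was 0 and 0 with no filter (raw p under 0.05 for 540 higher and 568 lower), after median-ratio scaling (378 and 558), without the trend (131 and 365), after scaling without DEN+CCl4 replicate 3 (301 and 305), and with no filter and a pseudocount of 0.1 (636 and 590). Leaving out 1 library gave 0 to 120 higher and 0 to 272 lower. The 2 CDK inhibitor calls became 0 under each of these settings and between 0 and 2 with a library left out, and held with a replicate block. With the filter at 5 FPKM neither Cdkn1a (mean 3.78 FPKM) nor Cdkn2b (mean 1.08 FPKM) was tested, so no call could be made there. Calls among the 35 genes stayed at 0 higher and 0 lower under every alternative, except that leaving out 1 library gave 0 to 1 lower (Tk1, without DEN+CCl4 replicate 1), as it did for the other replication genes (0 to 1, Mcm10). Medians moved to 0.33 for all 35 genes and 0.58 for the mitotic genes with a pseudocount of 0.1, with or without the filter, and the replication median ran from -0.08 to 0.10 with a library left out. The sign of Mcm7 turned to 0.04 after scaling, 0.02 without mitochondrially encoded genes, 0.10 after scaling without DEN+CCl4 replicate 3, and ran from -0.36 to 0.29 with a library left out (0.01 without control replicate 2). Pcna turned to 0.04 after scaling. The cause was not tested. Correlations of deviations from the group means were 0.0716, 0.416 and -0.146 for same-numbered libraries and -0.372 to 0.228 for the others. Deviations from a mean of 3 libraries depend on each other, so these values cannot settle whether replicate numbers pair the samples. A replicate block gave 32 genes lower and 0 calls among the 35 genes. Depth is unknown and the values are in steps of 0.01 FPKM. Of the 35 genes 26 stayed below 1 FPKM in every library and 6 had a mean below 0.1 FPKM.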

Other observations

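Some other cell cycle genes lay below the controls in all 3 DEN+CCl4 livers, and were chosen after their values were seen. Ccnf, the cyclin subunit of an SCF ubiquitin ligase, read 1.33, 1.93 and 0.11 FPKM in the DEN+CCl4 livers, against 2.06, 6.89 and 3.81 FPKM in the control livers (limma adjusted p = 0.233). Spc24, a kinetochore protein of the Ndc80 complex, read 2.84, 2.16 and 0.24 FPKM in the DEN+CCl4 livers, against 3.02, 3.75 and 5.43 FPKM in the control livers (limma adjusted p = 0.666). Both lay below after scaling too. The phosphatase gene Cdkn3 read 0, 1.31 and 1.02 FPKM in the DEN+CCl4 livers, against 0.14, 0 and 0.15 FPKM in the control livers, so that replicates 2 and 3 were high and replicate 1 was not. No test of these choices was made.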
